A study of Sorghum bicolor with 12 samples.

Results

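In both sorghum genotypes, IS22330 and IS20351, 138 transcripts had a higher mean level in drought stressed than in well watered plants by a wide margin. They were chosen from the group means by their values: reads in all 4 groups (a mean above 0.0011 RPKM, reads scaled to transcript length and library total), a mean of at least 1 RPKM in both groups of drought stressed (DS) plants, and a mean at least 4 times as high in DS as in well watered (WW) plants of each genotype. Of 27989 transcripts, 22875 had reads in all 4 groups and 16151 of these also reached the RPKM minimum. The 138 that passed (0.854% of the 16151) belong to 136 of the 26285 genes. Since the drought ratios chose them, these ratios are given as a description and were not tested.

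The 4 groups were DS and WW plants of IS22330, called tolerant by the study, and DS and WW plants of IS20351, called sensitive. Both are durra race sorghum, grown singly in pots, and each is 1 genotype of its kind. DS plants had been held for 9 days at 0.2 FTSW, the fraction of transpirable soil water, WW plants were kept close to 0.7, and all were harvested 42 days after emergence. Each group had 3 biological replicates, so there were 12 libraries of poly-A RNA, labelled as leaf and extracted from the leaf meristem. The deposited values are means over 3 libraries, from which the reads of each library were solved. Within a group the letters a, b and c run from the smallest to the largest total, and equal letters do not pair plants.

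A plant short of water closes its stomata, largely through the hormone abscisic acid. It also makes protective proteins and solutes, strengthens the waxy cuticle that limits water loss from the leaf surface, and removes the peroxides that form when light is absorbed and carbon fixation slows. Transcripts that rise under drought in unlike genotypes are the usual place to look for this shared programme. Gene names, matched by the study to rice, maize or Arabidopsis, were at hand for 174 of the 27989 transcripts. The study gave them for transcripts it found to respond to drought, in metabolic pathways it selected. Only 9 of the 138 carry one, and the other 129 are given by identifier, with no role. By their names, the 9 act in surface wax synthesis, phospholipid cleavage, flavonoid synthesis, ascorbate and peroxide chemistry, and the light reactions. These roles follow the selected pathways and do not describe the 138 as a set.

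Libraries held 26398759 to 28680141 reads on transcripts. Chlorophyll-binding proteins and the Rubisco small chain, the light-harvesting and carbon-fixing proteins of green leaf, were plainly present. Their 9 annotated transcripts summed to 821, 979 and 7046 RPKM in libraries a, b and c of IS22330 DS plants, against 5563, 3251 and 6556 RPKM in its WW libraries. In IS20351 the sums were 1148, 1215 and 1618 RPKM in DS libraries, against 8135, 7209 and 8362 RPKM in WW libraries. DS library c of IS22330 thus lay with the WW libraries. The 9 were named by the study among transcripts picked by drought response in these plants. Lower sums in DS libraries are therefore no independent result. Markers of the meristem were not identified by name here, so the meristem was not checked. In such bulk samples fewer cells of a type and less RNA per cell cannot be told apart.

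Over the 19022 transcripts that reached 1 RPKM in 3 or more libraries, DS library c of IS22330 also had a Pearson correlation of 0.909 to 0.924 with the WW libraries of IS22330, and of 0.836 and 0.854 with DS libraries a and b. WW library b of IS22330 stood between, with correlations of 0.913 and 0.925 with DS libraries a and b, and of 0.879 and 0.929 with WW libraries a and c. These are correlations of log2(RPKM + 0.1) across transcripts, which are not independent replicates. Of the 900 transcripts that differed between the genotypes in WW plants, 828 lay in library c on the IS22330 side of the midpoint between the genotypes. Library c therefore went with its genotype label and against its treatment label. Ratios below include it unless stated, and the IS22330 ratios of the transcripts described most fully are also given without it.

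**Figure D1:**
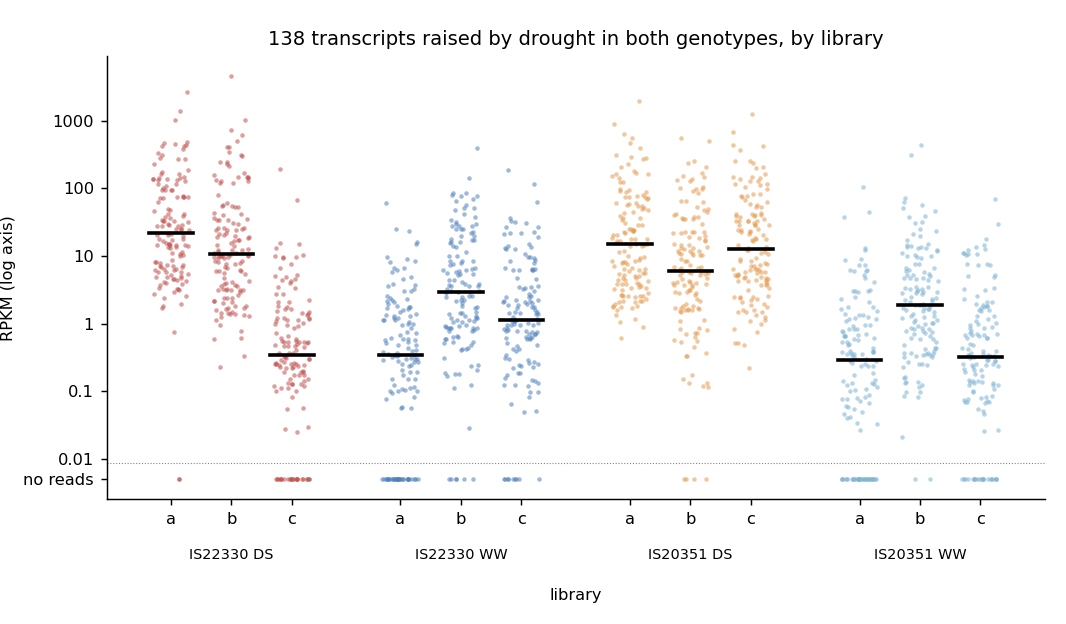
RPKM (log axis) of the 138 transcripts in each of the 12 libraries, with libraries a, b and c of each group on the x axis. Points are transcripts, black bars are medians, and transcripts without reads stand on the lowest line. The median was 21.7 and 10.6 RPKM in DS libraries a and b of IS22330 but 0.347 RPKM in c, within the range of the WW libraries.

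The 138 transcripts were high in 5 of the 6 DS libraries. Their median level was 21.7, 10.6 and 0.347 RPKM in libraries a, b and c of IS22330 DS plants, against 0.343, 2.96 and 1.12 RPKM in its WW libraries a, b and c. In IS20351 the medians were 14.9, 6.10 and 12.6 RPKM in DS libraries, against 0.292, 1.87 and 0.325 RPKM in WW libraries. Library c of the DS plants of IS22330 was the lowest of its group for 135 of the 138, at or below the highest WW library for 128, and below the lowest WW library for 57. Over all 19022 transcripts, 83.2% were at or below the highest WW library in library c, and the other counts have no such share here. In 23 of the 138 library c held no reads. Their mean ratios in IS22330 thus came from DS libraries a and b.

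The WW libraries also differed among themselves. Library b was the highest of the WW libraries for 114 of the 138 in IS22330 and for 109 in IS20351. These counts have no share over all transcripts beside them, so they are not shown to be particular to the 138. Against the mean of DS libraries a and b of IS22330, the median transcript stood at 2.09, 16.0 and 6.55% in WW libraries a, b and c. Against the mean of the 3 DS libraries of IS20351, it stood at 1.61, 16.7 and 2.66%. One WW library in each genotype thus carried these transcripts at an intermediate level. In IS22330 that library also had the lowest sum of the 9 chlorophyll and Rubisco transcripts among WW libraries, as did WW library b of IS20351, with 3251 and 7209 RPKM. The part of plant condition, handling or library in this was not tested.

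All 3 DS libraries lay above all 3 WW libraries for 9 of the 138 in IS22330 and for 97 in IS20351, where 4.93% and 21.5% of the 19022 transcripts did so. The rule used these contrasts. In IS22330 DS libraries a and b lay above the 3 WW libraries for 129 of the 138, beside 26% of the 19022 transcripts. In IS20351 the groups overlapped for 41, and for 32 of these the overlap came from WW library b alone. The groups were separated in both genotypes for 8 of the 138, where 1.96% of the 19022 transcripts were.

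**Figure D2:**
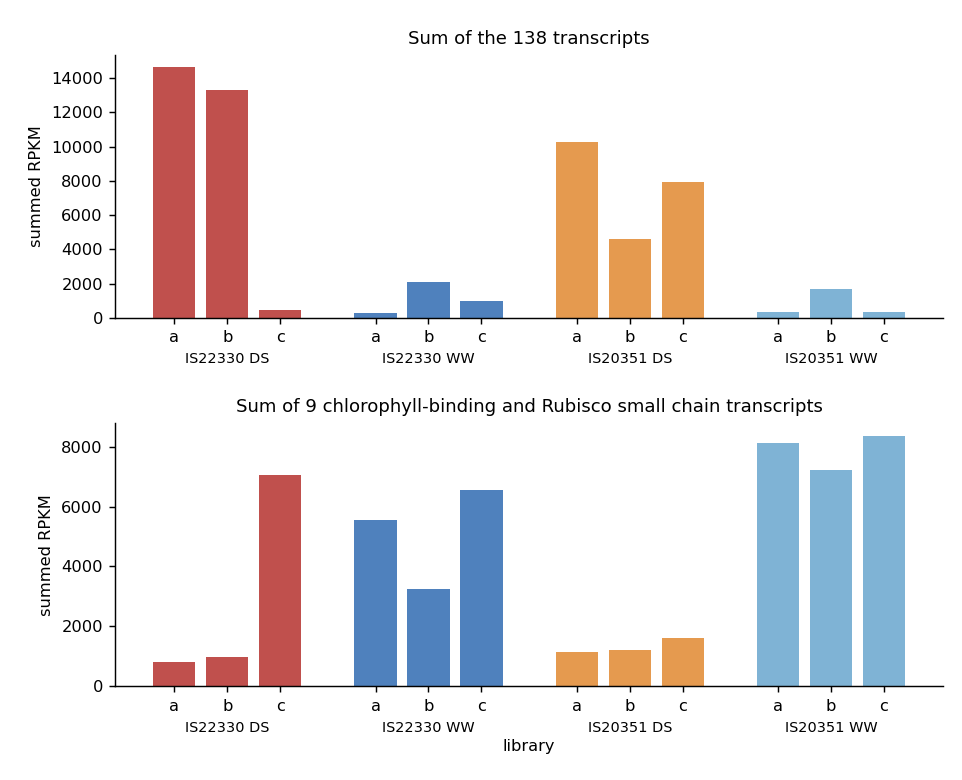
Summed RPKM of the 138 transcripts (upper panel) and of 9 chlorophyll-binding and Rubisco small chain transcripts (lower panel) in each library, both from 0. The 138 summed to 14647, 13304.5 and 464 RPKM in DS libraries of IS22330, and library c had 7046 RPKM of the 9 leaf transcripts, like the WW libraries.

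The summed level of the 138 shows the same order. It was 14647, 13304.5 and 464 RPKM in libraries a, b and c of IS22330 DS plants, against 291, 2119 and 961 RPKM in WW libraries. In IS20351 it was 10266, 4592 and 7927 RPKM in DS libraries, against 345, 1669.6 and 334 RPKM in WW libraries. A few abundant transcripts carried much of these sums, as 14 of the 138 averaged over 100 RPKM in the DS plants of both genotypes while 55 averaged under 10 RPKM in both.

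**Figure D3:**
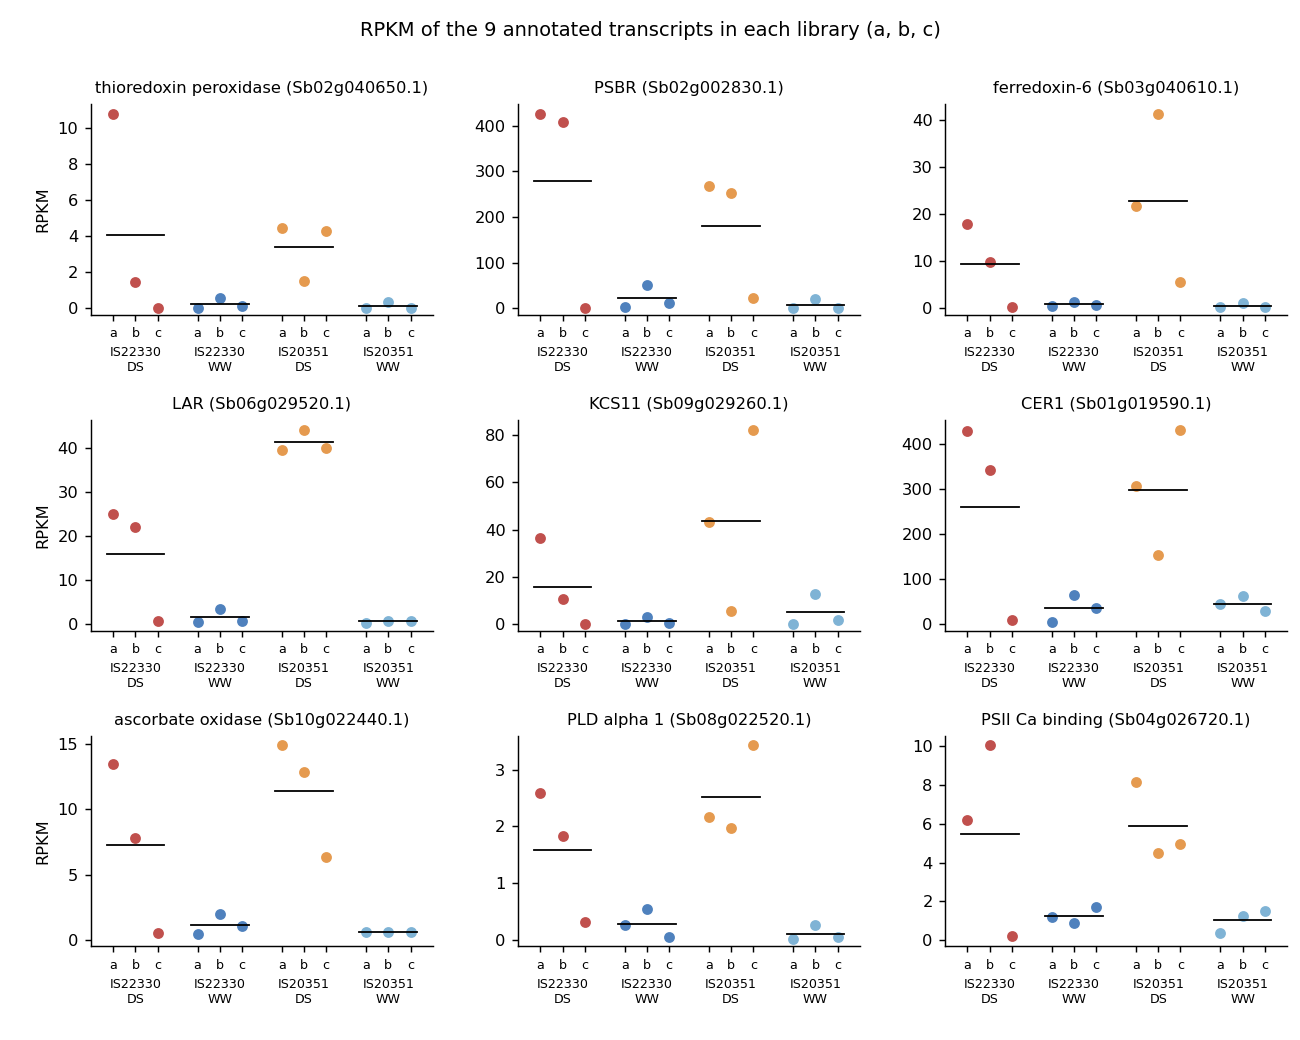
RPKM of the 9 annotated transcripts in each library, DS left of WW within each genotype; points are libraries and black lines are group means. DS library c of IS22330 (the last red point of each panel) lies within or below the range of the WW libraries of IS22330, as for CER1 at 9.42 RPKM beside 430 and 344 RPKM in a and b. It lies below all of them for PSBR, KCS11, ferredoxin-6 and the photosystem II calcium ion binding protein.

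CER1 and KCS11 belong to the synthesis of surface wax. CER1 (Sb01g019590.1), the octadecanal decarbonylase that in Arabidopsis is needed to form wax alkanes, had 430, 344 and 9.42 RPKM in libraries a, b and c of IS22330 DS plants, against 5.79, 65.7 and 36.7 RPKM in WW libraries. For IS20351 the values were 308, 155 and 433 RPKM in DS libraries, against 44.2, 62.8 and 29.7 RPKM in WW libraries. The groups did not overlap in IS20351, and in IS22330 they overlapped through DS library c. The mean ratios were 7.24 in IS22330 (10.7 without DS library c) and 6.55 in IS20351. With group means of 261 and 299 RPKM in DS plants of IS22330 and IS20351, CER1 was among the 10 most abundant members.

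KCS11 (Sb09g029260.1) is a 3-ketoacyl-CoA synthase, the enzyme type that performs the condensing step in the elongation of very-long-chain fatty acids. It had 36.6, 10.9 and 0.113 RPKM in libraries a, b and c of IS22330 DS plants, against 0.359, 3.03 and 0.602 RPKM in WW libraries. The IS20351 values were 43.4, 5.76 and 82.3 RPKM in DS libraries, against 0.356, 13.0 and 1.80 RPKM in WW libraries. The groups overlapped in IS22330 through DS library c and in IS20351 because WW library b exceeded DS library b. The mean ratios were 11.9 in IS22330 (17.8 without DS library c) and 8.70 in IS20351.

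Other annotated transcripts of these families did not meet the rule. A second CER1 (Sb04g026320.1) had 0.234, 0.0519 and 0.0519 RPKM in DS libraries of IS22330, against 0.261, 0.0252 and 0 RPKM in WW libraries. IS20351 had 3.50, 1.04 and 6.14 RPKM in DS libraries, against 0.103, 0.893 and 0.0746 RPKM in WW libraries, with no overlap. By the quasi-likelihood test of edgeR, adjusted over all 19022 transcripts, IS22330 had a log2 ratio of 0.28 ± 1.35 (SE) with an adjusted p of 0.958. For IS20351 it was 3.29 ± 1.28 (SE) with an adjusted p of 0.135. In IS22330 this drought test called 0% of all transcripts higher and 0% lower. A miss in IS22330, here or below, thus does not set a transcript apart from the members, which were not tested for drought. One more CER1 (Sb06g022320.1) averaged 0.143 RPKM in DS plants and 1.08 RPKM in WW plants of IS22330, and 0.544 RPKM in DS plants and 0.132 RPKM in WW plants of IS20351, where all 3 DS libraries lay above the WW libraries. It was too low to be tested. KCS2 (Sb05g025040.1), another elongation enzyme, averaged 0.152 RPKM in DS plants and 0.985 RPKM in WW plants of IS22330, and 0.189 RPKM in DS plants and 1.12 RPKM in WW plants of IS20351. Its log2 ratios of -2.67 (SE 1.74, adjusted p = 0.560 by edgeR) and -2.53 (SE 1.71, adjusted p = 0.359) did not pass the threshold.

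The other lipid enzyme was phospholipase D alpha 1 (Sb08g022520.1), which cleaves membrane phospholipids to phosphatidic acid and takes part in the abscisic acid response of guard cells in Arabidopsis. It was expressed at a low level, with 2.60, 1.83 and 0.319 RPKM in libraries a, b and c of IS22330 DS plants, against 0.267, 0.542 and 0.0516 RPKM in WW libraries. In IS20351 it had 2.17, 1.97 and 3.42 RPKM in DS libraries, against 0.0265, 0.270 and 0.0509 RPKM in WW libraries. The IS20351 groups were well apart, and in IS22330 only DS library c fell among the WW values. The mean ratios were 5.52 in IS22330 (7.72 without DS library c) and 21.8 in IS20351. Phospholipase D alpha 2 (Sb02g024910.1) averaged 0.200 RPKM in DS plants and 1.05 RPKM in WW plants of IS22330, and 0.0737 RPKM in DS plants and 0.0950 RPKM in WW plants of IS20351, too low to be tested.

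Leucoanthocyanidin reductase (Sb06g029520.1) makes flavan-3-ol units for condensed tannins. It had the largest ratio of the 9 in IS20351, 61.1, and a ratio of 9.84 in IS22330 (14.5 without DS library c). Its IS20351 DS libraries held 39.6, 44.3 and 40.1 RPKM, against 0.321, 0.859 and 0.849 RPKM in WW libraries, the tightest DS group of the annotated members. In IS22330 the DS libraries held 25.0, 22.2 and 0.725 RPKM, against 0.486, 3.60 and 0.783 RPKM in WW libraries. DS libraries a and b of IS22330 were each lower than every DS library of IS20351. The log2 ratio between the genotypes in DS plants was -1.39 (adjusted p = 0.504 by edgeR), so this difference did not pass the test.

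L-ascorbate oxidase (Sb10g022440.1), which oxidizes ascorbate in the cell wall space, had 13.5, 7.79 and 0.550 RPKM in libraries a, b and c of IS22330 DS plants, against 0.477, 2.03 and 1.11 RPKM in WW libraries. The IS20351 values were 14.9, 12.9 and 6.35 RPKM in DS libraries, against 0.662, 0.607 and 0.618 RPKM in WW libraries. The WW level in IS20351 was even among libraries and far below each DS library. The annotated precursor of another L-ascorbate oxidase (Sb03g039530.1) had 1.32, 0.402 and 0.755 RPKM in DS libraries of IS22330, against 0.50, 3.25 and 9.36 RPKM in WW libraries. Its log2 ratios were -2.33 ± 1.46 (SE) in IS22330 and 1.29 ± 1.41 (SE) in IS20351, with adjusted p of 0.549 and 0.580 by edgeR.

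Thioredoxin peroxidase (Sb02g040650.1), which reduces peroxides with electrons from thioredoxin, had 10.8, 1.48 and 0 RPKM in libraries a, b and c of IS22330 DS plants, against 0, 0.601 and 0.133 RPKM in WW libraries. IS20351 had 4.47, 1.53 and 4.31 RPKM in DS libraries, against 0, 0.333 and 0 RPKM in WW libraries. It was the only annotated member without any reads in DS library c of IS22330. The mean ratios were 16.7 in IS22330 (25.1 without DS library c) and 30.8 in IS20351. The related peroxiredoxin-5 (Sb04g006270.1) was lower in most DS libraries, at 5.20, 6.86 and 114 RPKM in DS libraries of IS22330, against 101, 59.6 and 58.5 RPKM in WW libraries, and at 6.25, 23.5 and 20.3 RPKM in DS libraries of IS20351, against 139, 148 and 172 RPKM in WW libraries. Its log2 ratios were -0.59 ± 0.99 (SE) in IS22330 and -3.30 ± 1.07 (SE) in IS20351, with adjusted p of 0.839 and 0.0913 by edgeR. DS library c of IS22330 was again with the WW libraries.

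The light reactions gave 3 members. PSBR (Sb02g002830.1) was named by its match to Arabidopsis, where PSBR is a small subunit of photosystem II near the site of water oxidation. It had 426, 407 and 1.41 RPKM in libraries a, b and c of IS22330 DS plants, against 3.09, 51.0 and 12.6 RPKM in WW libraries. In IS20351 it had 269, 252 and 23.6 RPKM in DS libraries, against 1.40, 21.4 and 1.77 RPKM in WW libraries. It reached a DS level like that of CER1, and DS library c of IS20351 lay just above WW library b. The mean ratios were 12.5 in IS22330 (18.7 without DS library c) and 22.2 in IS20351.

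Ferredoxin-6 (Sb03g040610.1), an iron-sulfur carrier of electrons, had 17.9, 9.80 and 0.365 RPKM in libraries a, b and c of IS22330 DS plants, against 0.587, 1.42 and 0.710 RPKM in WW libraries. The IS20351 values were 21.8, 41.4 and 5.60 RPKM in DS libraries, against 0.364, 1.13 and 0.350 RPKM in WW libraries. DS library b, mostly the lowest DS library of IS20351 for the 138, was the highest here. The photosystem II calcium ion binding protein (Sb04g026720.1) had the smallest ratio of the 9 in each genotype, 4.32 in IS22330 (6.39 without DS library c) and 5.56 in IS20351. It had 6.18, 10.1 and 0.199 RPKM in DS libraries of IS22330, against 1.20, 0.870 and 1.74 RPKM in WW libraries, and 8.18, 4.52 and 4.95 RPKM in DS libraries of IS20351, against 0.397, 1.25 and 1.52 RPKM in WW libraries. A second transcript with this annotation (Sb06g022890.1) was more abundant and had 64.2, 38.3 and 7.57 RPKM in DS libraries of IS22330, against 29.2, 9.17 and 5.86 RPKM in WW libraries. IS20351 had 38.8, 24.1 and 39.4 RPKM in DS libraries, against 4.48, 5.93 and 6.29 RPKM in WW libraries. Its log2 ratios were 1.29 (SE 0.68, adjusted p = 0.494 by edgeR) and 2.53 (SE 0.71, adjusted p = 0.0675), and its IS20351 groups did not overlap.

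Most of the light reaction list had the opposite direction. Of the 19 light reaction transcripts annotated by the study, 13 had a lower mean in DS than in WW plants of both genotypes and 4 had a higher one. Among the 18 that were tested, edgeR called 0 for drought in IS22330, as over all transcripts (0%), while 2 of the 18 and 2094 of all transcripts had an unadjusted p under 0.05. In IS20351, where the unadjusted p was under 0.05 for 18 of the 18 and for 5092 of all, it placed 1 of the 18 above and 2 below WW plants, beside 1.3% and 2.42% of all transcripts. The 1 above was ferredoxin-6, which the rule had chosen by this same contrast. As the study picked this list on the same plants, its direction is no independent support. The rule took 2 of 49 annotated lipid transcripts, 3 of 67 of secondary metabolism (CER1 among them), 1 of 18 antioxidant transcripts, and 0 of 12 of carbon metabolism and 0 of 9 of the Calvin cycle. Of these lists, in the same order, 20, 27, 13, 9 and 7 transcripts had reads in all 4 groups and reached the RPKM minimum. Over all 16151 such transcripts the rule took 0.854%. The study picked these lists too by drought response in the same plants, so a larger share in them is no independent support. The counts are small, and differences between the lists were not tested.

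**Figure D4:**
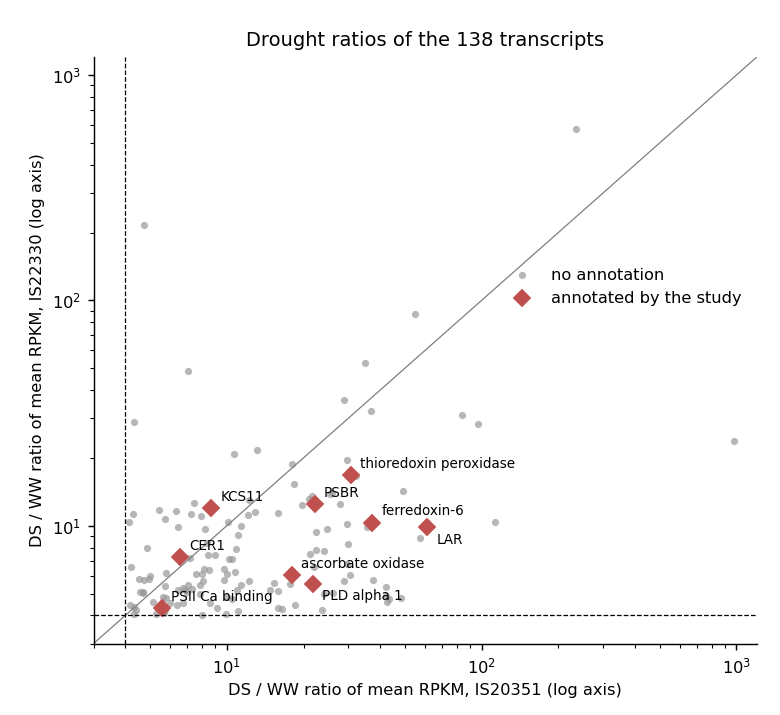
DS/WW ratio of the mean RPKM of the 138 transcripts in IS22330 (y) against IS20351 (x), both on log axes. Dashed lines mark the ratio of 4 that the rule asked for, the diagonal marks equal ratios, and diamonds are the 9 annotated transcripts; 101 transcripts lie below the diagonal.

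Ratios in IS22330 had a median of 6.42 (quartiles 5.09 and 11.2) and those in IS20351 a median of 10.6 (quartiles 6.71 and 23.9). The ratio was larger in IS22330 for 37 transcripts and in IS20351 for 101. Without DS library c the median in IS22330 was 9.54, and the ratio was larger in IS22330 for 73 of the 138. The median stayed higher in IS20351, while the count moved to the IS22330 side. Without that library and without WW library b of both genotypes, the medians were 18.9 in IS22330 and 36.5 in IS20351. A ratio of at least 10 was reached by 43 in IS22330, by 74 in IS20351 and by 31 in both.

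With DS library c of IS22330 included, the IS22330 ratio was the one that limited the choice. Without that library 228 transcripts met the whole rule. With all libraries, a ratio of at least 4 was met by 193 of the 16151 transcripts in IS22330 (1.19%) and by 549 in IS20351 (3.4%). The 138 were therefore 71.5% of the IS22330 list and 25.1% of the IS20351 list. Just inside the threshold were Sb04g000615.1, Sb04g027280.1 and Sb10g029560.1, with a smaller ratio of 4.03, 4.04 and 4.05. Just outside were Sb02g025640.1, Sb03g030350.1 and Sb08g000515.1, with 3.97, 3.95 and 3.93. Sb04g000615.1 was also the 1 transcript of the 138 highest in DS library c of IS22330, with 4.24, 1.11 and 5.12 RPKM in DS libraries of that genotype, against 0.112, 0.541 and 1.95 RPKM in WW libraries, and its ratio was 3.09 without library c.

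The 2 neighbouring genes Sb02g031160 and Sb02g031170 had among the largest ratios and the highest levels. Transcript Sb02g031170.1 had 2665, 4579.7 and 3.54 RPKM in libraries a, b and c of IS22330 DS plants, against 23.2, 84.4 and 117 RPKM in WW libraries. For IS20351 the values were 1963, 568 and 422 RPKM in DS libraries, against 37.7, 24.8 and 17.9 RPKM in WW libraries. It was the most abundant member by far, and its level in DS library c of IS22330 was below every WW library. The ratios were 32.3 in IS22330 (48.5 without DS library c) and 36.8 in IS20351.

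Sb02g031160.1 had 490, 746 and 0.555 RPKM in libraries a, b and c of IS22330 DS plants, against 2.40, 8.34 and 3.45 RPKM in WW libraries. The IS20351 values were 479, 208 and 28.8 RPKM in DS libraries, against 6.02, 1.87 and 5.19 RPKM in WW libraries. Both neighbours thus kept the same order of the IS20351 DS libraries, with a highest and c lowest. The ratios of Sb02g031160.1 were 87.2 in IS22330 (131 without DS library c) and 54.7 in IS20351. Whether the 2 genes share sequence was not examined, and the deposited reads are unique matches.

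Neighbouring identifiers were found 7 times among the members, 14 genes in all, with no share over all genes to set beside this count. Besides this pair they were Sb01g005230 with Sb01g005240, Sb02g002830 (PSBR) with Sb02g002840, Sb02g009160 with Sb02g009170, Sb03g011080 with Sb03g011090, Sb04g031805 with Sb04g031810, and Sb04g036740 with Sb04g036750. Neighbours could differ widely in level. Next to PSBR, Sb02g002840.1 had 4.65, 4.05 and 0.371 RPKM in libraries a, b and c of IS22330 DS plants, against 0.174, 1.13 and 0.744 RPKM in WW libraries. IS20351 had 2.53, 1.65 and 0.517 RPKM in DS libraries, against 0.0493, 0.767 and 0.308 RPKM in WW libraries. As for PSBR, DS library c was the lowest in both genotypes. Whether the counting used strand is not given in the sources used here, so reads of overlapping neighbours may not be separable. Each of 2 genes gave 2 transcripts.

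Sb09g015030.1 had the highest smaller ratio of all. It had 21.3, 17.4 and 0 RPKM in libraries a, b and c of IS22330 DS plants, against 0, 0 and 0.0653 RPKM in WW libraries, and 18.6, 7.47 and 5.05 RPKM in DS libraries of IS20351, against 0, 0.130 and 0 RPKM in WW libraries. It was thus all but silent in WW plants. In IS22330 the ratio rested on 1148 reads in DS plants and 2 in WW plants, which gives 585 for the summed reads with a 95% interval of 161 to 4834 (exact, counting error only). Similarly, Sb10g012265.1 had 941 reads in DS plants and 1 in WW plants of IS20351, a ratio of 980 with an interval of 176 to 38764. Its IS22330 ratio was 23.6 (35.5 without DS library c).

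Sb03g011080.1 was silent in some libraries and abundant in others. It had 132, 135 and 0 RPKM in libraries a, b and c of IS22330 DS plants, against 0, 4.38 and 0.694 RPKM in WW libraries, and 54.8, 21.6 and 25.5 RPKM in DS libraries of IS20351, against 0, 2.84 and 0.0685 RPKM in WW libraries. WW library b was the one WW library of each genotype with more than a trace of it. Its neighbour Sb03g011090.1 had 115, 19.0 and 1.15 RPKM in DS libraries of IS22330, against 3.87, 3.59 and 3.20 RPKM in WW libraries.

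Sb02g010080.1 showed the same trace in WW library b, with 41.5, 12.5 and 0 RPKM in libraries a, b and c of IS22330 DS plants, against 0, 1.22 and 0.272 RPKM in WW libraries. In IS20351 it had 51.1, 19.7 and 31.2 RPKM in DS libraries, against 0, 3.52 and 0 RPKM in WW libraries. The rest of the 10 with the highest smaller ratio were Sb10g009592.1, Sb02g042790.1, Sb03g008880.1 and Sb03g007360.1, whose smaller ratios lay between 18.1 and 31.0. Of these, Sb03g007360.1 was 1 of the 8 separated in both genotypes, at 2.78, 0.605 and 0.193 RPKM in DS libraries of IS22330, against 0, 0.188 and 0 RPKM in WW libraries, and at 1.79, 0.537 and 1.49 RPKM in DS libraries of IS20351, against 0, 0.164 and 0.0463 RPKM in WW libraries. Even there DS library c of IS22330 exceeded WW library b only narrowly.

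After Sb02g031170.1 the most abundant member was Sb10g029560.1, which was high in WW plants too. It had 1408, 1026 and 191 RPKM in libraries a, b and c of IS22330 DS plants, against 60.3, 400.05 and 188 RPKM in WW libraries, and 893, 513 and 1258 RPKM in DS libraries of IS20351, against 105, 440 and 69.2 RPKM in WW libraries. Its WW libraries of each genotype differed more than 4-fold, with b the highest. The ratios were 4.05 in IS22330 (5.63 without DS library c) and 4.34 in IS20351.

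Sb07g015410.1 had 1039, 497 and 0.658 RPKM in libraries a, b and c of IS22330 DS plants, against 0.993, 144 and 15.2 RPKM in WW libraries, and 633, 136 and 253 RPKM in DS libraries of IS20351, against 0.821, 39.7 and 0.868 RPKM in WW libraries. Sb03g034280.1 had 461, 313 and 0.530 RPKM in DS libraries of IS22330, against 0.0999, 56.1 and 22.4 RPKM in WW libraries, and 207, 48.2 and 374 RPKM in DS libraries of IS20351, against 0.347, 17.2 and 0.254 RPKM in WW libraries. Both thus spanned at least 2 orders of magnitude among WW libraries of IS22330, with a the lowest and b the highest.

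Sb01g038670.1 was the only 1 of the 10 most abundant whose groups overlapped in IS20351. There it had 563, 133 and 675 RPKM in DS libraries of IS20351, against 6.19, 312 and 7.60 RPKM in WW libraries, so that WW library b exceeded DS library b. In IS22330 it had 469, 148 and 4.35 RPKM in DS libraries, against 2.34, 78.7 and 13.4 RPKM in WW libraries. The ratios were 6.58 in IS22330 (9.80 without DS library c) and 4.21 in IS20351. The rest of the 10 most abundant were Sb01g036330.1 and Sb03g036980.1, with DS means of 248 and 133 RPKM in IS22330 and of 214 and 216 RPKM in IS20351.

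Transcript length, which the rule did not use, had a median of 1097 bases in the 138 (range 216 to 3671), beside 1455 bases in the 16151 transcripts that met the RPKM minimum. In DS libraries of IS22330 the highest value was in a for 111 and in b for 26, and in c for 1. In IS20351 it was in a for 62, in b for 17 and in c for 59, and library b was the lowest for 92. DS plants of IS20351 thus differed among themselves too, and in 36 of the 138 WW library b exceeded DS library b. The members also differed in how few reads they had in WW plants, as 16 had under 30 reads over the 6 WW libraries together.

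The genotype comparison is a contrast that the rule did not use, and asks whether the same transcripts stood at different levels in IS22330 and IS20351. Of the 138, 137 were among the 19022 transcripts tested by edgeR, and Sb01g037560.2 was not. In WW plants 1 was called at an adjusted p under 0.05, higher in IS22330 (0.730% of the 137), where 4.73% of all tested transcripts were called in either direction. In DS plants 1 was called, the same transcript and again higher in IS22330, where 6.27% of all were called. At an unadjusted p under 0.05 there were 10 members in WW plants and 5 in DS plants (7.30% and 3.65%, beside 14.4% and 17.5% of all transcripts). The share called was below that of all transcripts in both treatments. Unlike the 138, the 19022 did not need reads in all 4 groups or 1 RPKM in both DS groups. Transcripts found in 1 genotype alone could thus be called among all but could not be members. The shares here and below are therefore not like for like.

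**Figure D5:**
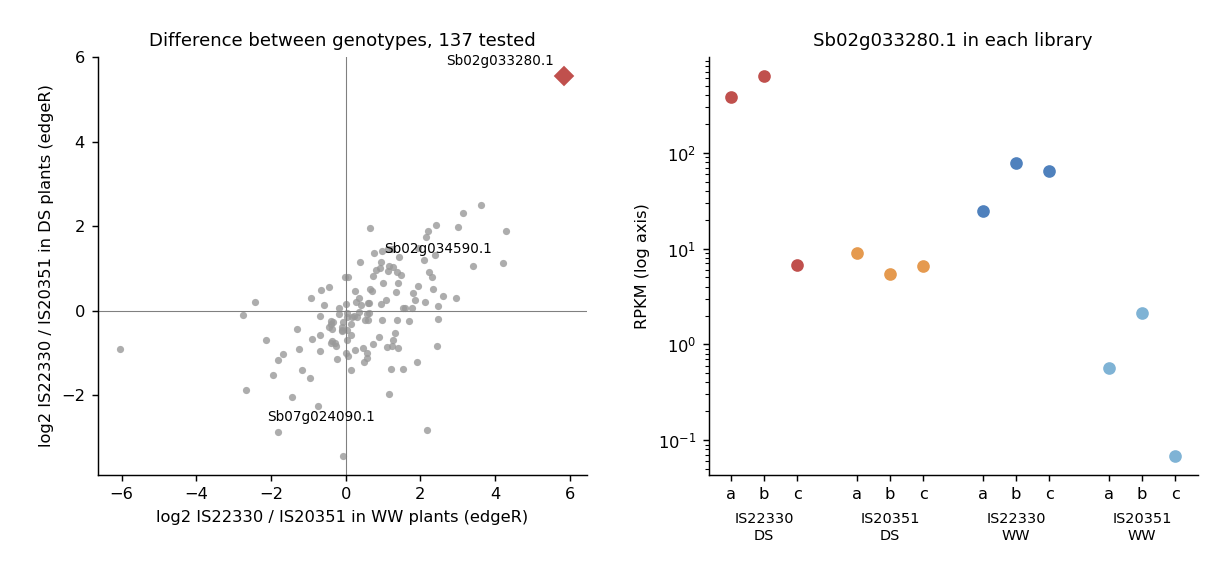
Left, log2 ratio of IS22330 to IS20351 by edgeR in DS plants (y) against WW plants (x) for the 137 tested transcripts, with the called one as a diamond. Right, RPKM (log axis) of Sb02g033280.1 in each library, where WW plants of IS22330 had 24.8 to 77.7 RPKM and those of IS20351 0.0688 to 2.12 RPKM.

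That transcript was Sb02g033280.1. In WW plants it had 24.8, 77.7 and 63.7 RPKM in IS22330, against 0.572, 2.12 and 0.0688 RPKM in IS20351. All 3 libraries of IS22330 were above all 3 of IS20351. By edgeR this was a log2 ratio of 5.86 ± 1.38 (SE) at an adjusted p of 0.0326. In DS plants it had 383, 629 and 6.71 RPKM in IS22330, against 8.89, 5.48 and 6.50 RPKM in IS20351. Here DS libraries a and b of IS22330 were far above IS20351, whereas library c lay within its range. The log2 ratio was 5.55 (SE 1.33, adjusted p = 0.0309), and 6.12 (SE 0.89, adjusted p = 0.00236) without library c. The drought ratios were 6.13 in IS22330 (9.13 without DS library c) and 7.55 in IS20351, so that WW plants of IS22330 held more of it than DS plants of IS20351, at a mean of 55.4 and 6.96 RPKM. The WW call was lost without WW library b or c of IS22330, WW library a or c of IS20351 or DS library a of IS20351, with adjusted p up to 0.149. The DS call was lost without any 1 DS library of IS20351, DS library a or b of IS22330 or WW library c of IS22330, with adjusted p up to 0.115.

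Below the threshold, Sb02g034590.1 and Sb07g024090.1, chosen after their values were seen, were the closest. In WW plants Sb02g034590.1 had 6.71, 29.8 and 32.8 RPKM in IS22330, against 0.394, 2.71 and 0.486 RPKM in IS20351, with no overlap, and 4.22 ± 1.27 (SE) for the log2 ratio (adjusted p = 0.103 by edgeR). In DS plants it had 166, 168 and 2.10 RPKM in IS22330, against 72.5, 36.1 and 43.0 RPKM in IS20351. Sb07g024090.1 leaned the other way in DS plants, with 29.1, 24.7 and 1.64 RPKM in IS22330, against 170, 97.4 and 130 RPKM in IS20351, and a log2 ratio of -2.86 (SE 0.91, adjusted p = 0.104). Without DS library c of IS22330, WW calls were 4 (Sb02g033280.1, Sb02g034590.1, Sb08g002970.1 and Sb01g010510.1) and DS calls were 3 (Sb02g033280.1, Sb08g002970.1 and Sb01g010510.1), all higher in IS22330, where 6.03% and 5.78% of 18918 transcripts were called.

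Across the tested members the median log2 ratio of IS22330 to IS20351 was 0.59 in WW plants and -0.08 in DS plants, beside 0.01 and 0.02 over all tested transcripts. The ratio was positive for 94 of 137 in WW plants and for 64 in DS plants. Without DS library c of IS22330 the DS median was 0.41, with 94 positive. In WW plants both values depended on single libraries. The WW median was -0.21, with 56 of 137 positive, without WW library b of IS22330, and 2.03, with 118 positive, without WW library b of IS20351. It was 0.19 (78 positive) without WW library a of IS20351 and 0.98 (105 positive) without WW library a of IS22330. The direction in WW plants was thus not the same under all of these. In DS plants the median was -1.07, with 26 of 133 positive, without DS library a of IS22330, -0.33 (48 of 135) without DS library b of IS20351, and 0.16 (75 of 134) without DS library c of IS20351. The IS22330 libraries lay wholly above those of IS20351 for 7 of the 138 in WW plants and for 0 in DS plants, where 13% and 9.05% of the 19022 transcripts were so placed. They lay wholly below for 1 in WW plants and 6 in DS plants, beside 9.66% and 10.6% of the 19022.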

How the data were processed

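Leaf RNA of 12 sorghum libraries was sequenced on the Illumina GAIIx. Per the study's methods, the authors aligned cleaned reads to Ensembl Plants release 20 sorghum with SOAPaligner/SOAP2 at up to 5 mismatches. The deposited expected counts (so called here only because they need not be whole) are unique reads per transcript averaged over 3 libraries. They are means of read counts and not estimates from a model. The deposited RPKM are likewise means of 3 libraries, and a library without reads entered as 0.001. Whole reads per library that give both means were solved for 27985 of 27989 transcripts, all 138 described here included, and checked on simulated data. The edgeR 4.0.16 quasi-likelihood test (R 4.3.3, TMM, prior count 0.125, Benjamini-Hochberg) was fitted to these reads for 19022 transcripts. SE is of the log2 ratio. Tables were made with Python 3.11.15 and pandas 2.3.3. Depth was 26398759 to 28680141 reads. PCR duplicates cannot be told apart, so intervals cover counting error only.

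Named were the 10 members with the highest smaller drought ratio, the 10 with the highest DS level, those annotated by the study, those called between genotypes, and 3 on each side of the ratio threshold. Others are said to be chosen after their values were seen, and the related transcripts and neighbours were chosen by annotation or identifier. Members and lists were chosen with earlier results of these data known. Lists by product name (drought signalling, osmolytes, tissue markers) and promoter motifs were not applied, as the reference used here gave neither product names nor sequences for these identifiers. Alternatives (limma 3.58.1, DESeq2 1.42.0, scalings, filters, pseudocounts, libraries left out) are given under how the results depend on the processing.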

Additional observations from a re-analysis of the deposited data

How the results depend on the processing

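The 138 transcripts became 241 at a ratio of at least 3 and 42 at a ratio of at least 8, 84 at a minimum of 5 RPKM and 218 with no minimum, 71 with a pseudocount of 1, and 211 (109 of them among the 138) with the median of 3 libraries in place of the mean. A minimum of 0.5 RPKM gave 165, a pseudocount of 0.1 gave 125, TMM scaling gave 133 and 1 transcript per gene gave 133. Leaving out each library in turn gave 65 to 228, lowest without DS library a of IS22330 and highest without DS library c (137 of the 138 included). It gave 221 without WW library b of IS22330. Without DS library c and WW library b of IS22330 and WW library b of IS20351 together, a choice made after seeing the data, it gave 403, of which 115 were among the 138. Of the other 23, 18 lacked reads in a remaining group and 5 had a ratio under 4.

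Members called between the genotypes in WW plants were 1 in the edgeR test, 3 with DESeq2 (7.94% of all transcripts called), 2 in an edgeR fit of the 6 WW libraries (74 members tested, 4.76% of all called), 0 under the stricter limits (adjusted p up to 0.001, log2 ratio from 2 upward in size), 0 to 4 over the fits that left out a library, and 3 without the 3 libraries above (4.49% of all called). In DS plants they were 1 in the edgeR test, 2 with DESeq2 (10.7% of all called), 0 with limma on log2(RPKM + 0.1) (6 at an unadjusted p under 0.05, 6.41% of all called), 2 with limma on log2(RPKM + 1) (6.13%), 0 in an edgeR fit of the 6 DS libraries (4 at an unadjusted p under 0.05, 3.37% of all called), 0 under the stricter limits, 0 to 3 over the fits that left out a library, and 5 without the 3 libraries (6.36% of all called). Over the fits that left out a library, 3.07 to 6.03% of all transcripts were called in WW and 3.71 to 6.18% in DS plants. The median log2 ratio of the members in DS plants was -0.98 and -0.54 with limma at pseudocounts of 0.1 and 1. The edgeR counts were 1 in WW and 1 in DS plants with RLE or upper quartile scaling, no filter or a prior count of 2. For Sb02g033280.1 the log2 ratio kept its sign under all 21 alternatives, at 4.87 to 7.34 in WW and 3.97 to 6.12 in DS plants, with an adjusted p under 0.05 in 16 and 12 of them. For Sb02g034590.1 in DS plants the log2 ratio was 1.12 by edgeR (adjusted p = 0.678) and -0.29 and -0.15 with limma at the 2 pseudocounts (adjusted p = 0.954 and 0.974). The cause of these shifts was not tested. No paired analysis was possible because the deposited tables carry no replicate numbers. With 3 libraries a group, of which 1 stood apart in IS22330 DS plants, small differences between genotypes were not detectable here. Large ones could miss the threshold too. In WW plants Sb02g034590.1 had a log2 ratio of 4.22 (adjusted p = 0.103 by edgeR). In DS plants Sb06g022500.1 had a log2 ratio of -3.44 (adjusted p = 0.207 by edgeR). A member that was not called is thus not shown to be alike in the genotypes.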

Other observations

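When the rule was applied without DS library c and WW library b of IS22330 and WW library b of IS20351, 288 transcripts met it that are not among the 138, and 18 of these carry a name from the study. They are given as values only, since they were chosen after the data were seen. Carbon and Calvin cycle enzymes, of which the 9 annotated members of the 138 hold none, were among them. Beta amylase (Sb01g019850.1), which breaks down starch, had 435, 111 and 22.6 RPKM in libraries a, b and c of IS22330 DS plants, against 1.04, 164 and 50.4 RPKM in WW libraries. In IS20351 it had 130, 59.7 and 219 RPKM in DS libraries, against 1.39, 56.4 and 0.988 RPKM in WW libraries. WW library b of both genotypes held it near the level of DS library b. A choice made without WW library b favours transcripts of this kind.

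Sb05g027880.1, annotated as a Rubisco activator by its match to rice, had 41.5, 33.9 and 0.0413 RPKM in DS libraries of IS22330, against 0.0415, 13.9 and 5.76 RPKM in WW libraries. In IS20351 it had 40.1, 96.9 and 3.78 RPKM in DS libraries, against 0.0412, 2.18 and 0 RPKM in WW libraries. The Rubisco small chain (Sb05g003480.1) had 1632, 1804 and 1614 RPKM in the same WW libraries of IS20351. Whether Sb05g027880.1 acts on Rubisco in the leaf was not tested. The mean ratio of Sb05g027880.1 over all libraries was 3.83 in IS22330 and 63.3 in IS20351, so it fell short of the rule in IS22330 alone. CP12-2 (Sb01g037510.1), a regulator of the Calvin cycle, had 181, 146 and 7.71 RPKM in DS libraries of IS22330, against 19.5, 90.4 and 42.1 RPKM in WW libraries. Sucrose synthase 2 (Sb01g035890.1) had 214, 201 and 18.9 RPKM in DS libraries of IS22330, against 26.8, 54.0 and 48.1 RPKM in WW libraries, and ratios over all libraries of 3.37 in IS22330 and 4.84 in IS20351. In each of these 4, DS library c of IS22330 lay below the highest WW library. They met the rule only with that library and the WW libraries b left out, so the choice itself favoured this order. Over all 19022 transcripts, 83.2% were at or below the highest WW library in library c.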
